A study of Drosophila melanogaster with 11 samples.

Results

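Peptidoglycan recognition proteins (PGRPs) are the molecules with which flies sense and digest bacterial cell wall. The 10 PGRP genes described here, PGRP-SA, PGRP-SD, PGRP-LC, PGRP-LE, PGRP-LA, PGRP-LF, PGRP-LB, PGRP-SB1, PGRP-SC1a and PGRP-SC2, were chosen by gene symbol from 15603 genes in each of 3 expression tables, and all 10 were present in every table. The tables hold RNA sequencing of Drosophila adult female thorax, L3 larval fat body and adult fat body, with 15 animals per sample. Each of the 11 groups was sequenced as 1 library, so no difference below could be set against replicate error and no p-value is given.

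The 3 thorax libraries came from adults of a GeneSwitch driver, which is switched on by the steroid RU486, and at day 7 of adult life all 3 were given RU486 for 24 hr. As control served tubulinGeneSwitch x w1118, which has no transgene to induce. The other thoraces were tubulinGeneSwitch x UAS-dOTC, which expresses a misfolding mitochondrial enzyme (ΔOTC), and tubulinGeneSwitch x ND75 RNAi, which depletes a complex I subunit. The sample labels name the tubulin driver and the paper names the daughterless driver, and both drive widely. All 8 fat body libraries carried DaGeneSwitch and UAS-dOTC, either in an otherwise wild type background (WT) or with both parents PGAM5 null, that is without the mitochondrial phosphatase PGAM5. At each stage a genotype was sequenced without and with RU486. The adults had received it as larvae and were collected 7 days after eclosion. No fat body library had RU486 without the ΔOTC transgene, so RU486 and ΔOTC cannot be told apart there, and in the thorax the transgene cannot be told apart from the cross. The drivers are not specific to the tissues sampled.

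As background, the fly has a pair of bacterial sensing pathways. Lysine-type peptidoglycan of most Gram-positive bacteria is bound in the hemolymph by secreted PGRP-SA, and PGRP-SD assists it, and the signal runs through proteases and the cytokine Spätzle to the Toll receptor. DAP-type peptidoglycan of Gram-negative bacteria and bacilli is bound by the membrane receptor PGRP-LC and by PGRP-LE, which also works inside the cell, and the signal runs through Imd to the NF-κB factor Relish. Relish then switches on antimicrobial peptide genes such as the diptericins and attacins. PGRP-LF is a membrane inhibitor of PGRP-LC, and PGRP-LA modulates Imd signalling in barrier epithelia. PGRP-LB, PGRP-SB1, PGRP-SC1a and PGRP-SC2 are amidases that cut peptidoglycan. PGRP-LB and the SC amidases damp the Imd pathway by removing its ligand, the SC genes mainly in the gut. The fat body is the main source of antimicrobial peptides in systemic infection.

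In the reference annotation PGRP-LA, PGRP-LC and PGRP-LF (FBgn0035975, FBgn0035976 and FBgn0035977) followed each other on the same strand of chromosome arm 3L with no gene between them. PGRP-SC1a (FBgn0043576) and PGRP-SC2 (FBgn0043575) lay on 2R around the near-identical gene PGRP-SC1b. PGRP-SB1 (FBgn0043578) and PGRP-SD (FBgn0035806) were also on 3L, PGRP-LB (FBgn0037906) on 3R, and PGRP-LE (FBgn0030695) and PGRP-SA (FBgn0030310) on X. The annotation held 10 transcripts for PGRP-LC, 6 for PGRP-LB, 5 for PGRP-LA, 2 each for PGRP-LE and PGRP-SA and 1 for each of the other 5 genes. FPKM for a gene with several transcripts adds them together, so nothing below separates isoforms.

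Values are FPKM, fragment numbers scaled to transcript length and to the mapped fragments of the library. The steps of low FPKM values put between 3000000 fragments (ND75 RNAi thorax) and 8760000 fragments (larval WT with RU486) behind a library. Every ratio is between 2 libraries of the same table, and its 95% interval covers counting error only. The labels were checked with their targets: Pgam5 was listed at 10.1 to 16.8 FPKM in the 4 WT fat bodies and at 0 to 0.841 FPKM in the 4 PGAM5 null ones, and ND75 at 572 FPKM in the control thorax and 53.8 FPKM with ND75 RNAi. All 9 flight muscle markers were at 10 FPKM or more in each thorax. The larval fat body held 5 or 6 of 6 larval serum protein and fat body protein genes at 10 FPKM or more, and the adult fat body 6 of 6 yolk protein and lipid genes. A header line of the adult table reads larval, and these markers go with its name as the adult table. Genes of other tissues were present too. Salivary gland glue genes summed to 135167 FPKM in WT larvae without and 59440 FPKM with RU486, and to 168872 and 38057 FPKM in PGAM5 null larvae. They were thus lower with RU486 in both genotypes, as were PGRP-SC2, PGRP-LB and most of the other PGRP genes. That direction was shared by 8476 of 10753 genes in WT and 7138 of 10555 in PGAM5 null. Of the 6 glue genes 4 in WT and 5 in PGAM5 null were at least 2-fold lower. Eggshell and ovary genes summed to 5400 FPKM in the adult PGAM5 null fat body with RU486 and to between 66.2 and 176 FPKM in the other 3. Their part in the results was not tested.

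Across tissues the family split into genes of steady and of variable level. Between tables that were normalised separately, levels are given side by side only. PGRP-LE was the steadiest member, at 7.28 to 18.1 FPKM over all 11 libraries (median 11.9 FPKM). PGRP-SC2 was the most variable, from 2.80 FPKM in adult PGAM5 null fat body without RU486 to 273 FPKM in its larval counterpart. The secreted sensors PGRP-SA and PGRP-SD were listed at 51.8 to 97.9 FPKM and 72.6 to 181 FPKM in the 8 fat body libraries. In the control thorax they were at 9.57 and 5.20 FPKM. The receptor PGRP-LC was listed at 6.84 to 11.8 FPKM in larval fat body, 18.2 to 27.0 FPKM in thorax and 65.0 to 118 FPKM in adult fat body. PGRP-LF lay between 0.862 and 1.75 FPKM in larval fat body and between 7.82 and 14.2 FPKM in adult fat body.

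**Figure D1:**
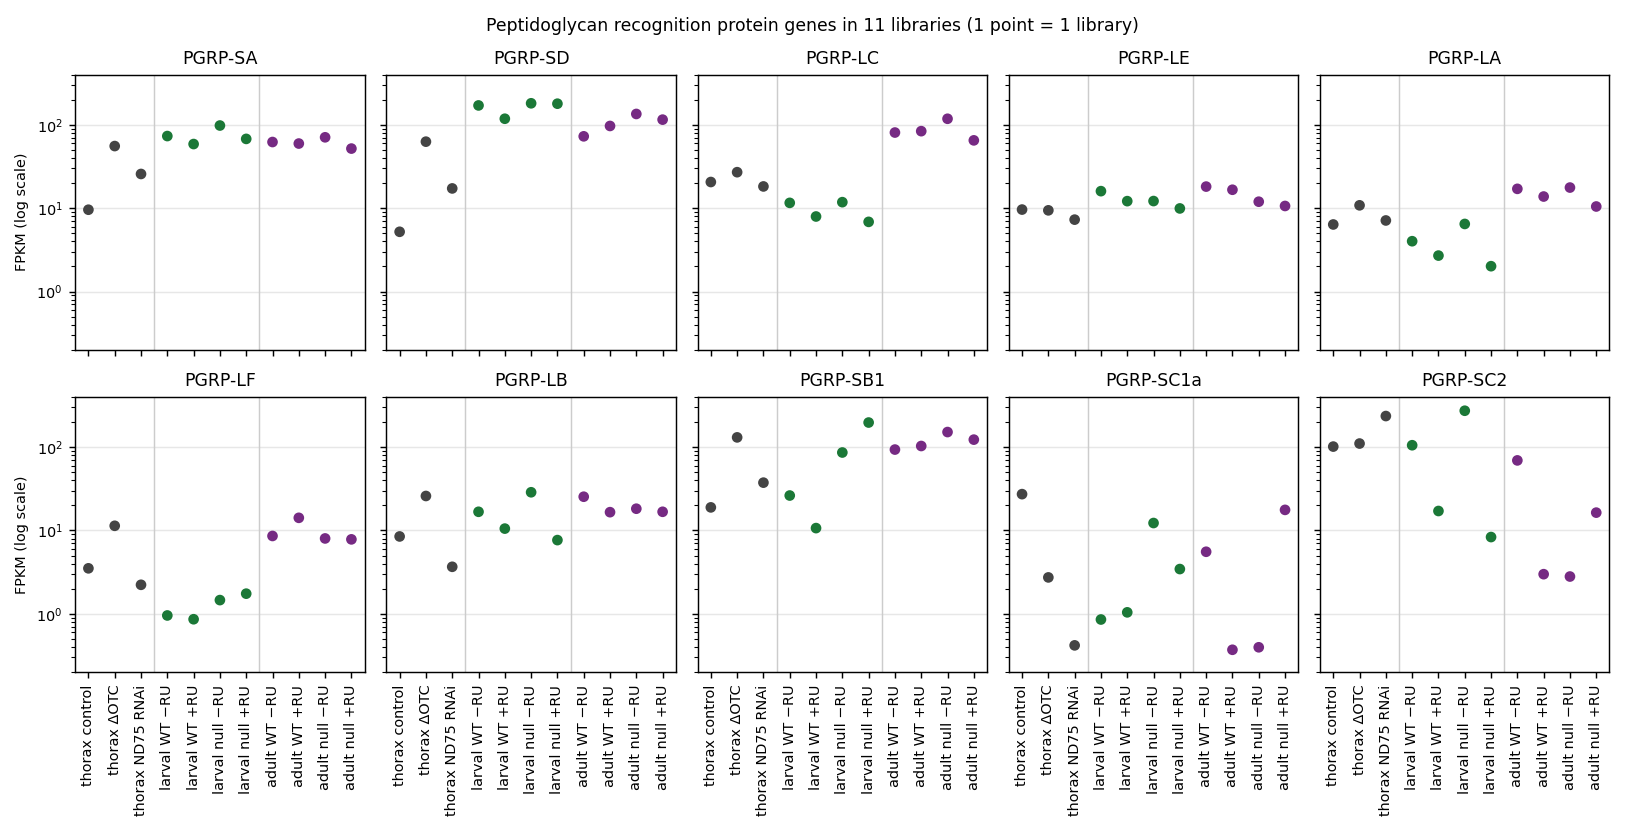
FPKM on a log scale of the 10 PGRP genes in the 11 libraries, 1 point per library (dark grey thorax, green larval fat body, purple adult fat body; RU, RU486; null, PGAM5 null). PGRP-LE stays between 7.28 and 18.1 FPKM, while PGRP-SC2 ranges from 2.80 to 273 FPKM; the tables were normalised separately.

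Under ΔOTC in the thorax, the secreted sensors PGRP-SD and PGRP-SA were both higher. PGRP-SD was listed at 5.20 FPKM in the control, 62.7 FPKM with ΔOTC and 17.2 FPKM with ND75 RNAi. That is 12.0-fold (95% interval 7.18 to 21.4) and 3.31-fold (1.73 to 6.50) the control. The high order was ΔOTC, then ND75 RNAi, then control, and the same order held for PGRP-SA, the main sensor of lysine-type peptidoglycan. PGRP-SA stood at 9.57 FPKM in the control, 55.5 FPKM with ΔOTC and 25.7 FPKM under ND75 depletion. It was 5.80-fold (3.84 to 8.73) and 2.68-fold (1.64 to 4.40) the control. The 2 stress libraries are set against the same control, so their ratios are not independent of each other.

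The receptors of the Imd branch differed less from the control than the secreted sensors. PGRP-LC, the membrane receptor, was listed at 20.6 FPKM in the control, 27.0 FPKM with ΔOTC and 18.2 FPKM with ND75 RNAi. Its ratio was 1.31 (1.01 to 1.69) with ΔOTC and 0.885 (0.625 to 1.22) with ND75 RNAi. PGRP-LE, the intracellular sensor, was at 9.61, 9.41 and 7.28 FPKM in control, ΔOTC and ND75 RNAi, and both of its intervals, 0.677 to 1.42 and 0.464 to 1.20, contain 1. PGRP-LA was at 6.37 FPKM in the control, 10.8 FPKM with ΔOTC (1.70-fold, 1.04 to 2.91) and 7.11 FPKM with ND75 RNAi. PGRP-LF, the receptor's inhibitor, had a higher ratio with ΔOTC than its chromosomal neighbours PGRP-LA and PGRP-LC, though its interval overlapped that of PGRP-LA. It was listed at 3.51 FPKM in the control and 11.4 FPKM with ΔOTC (3.24-fold, 1.99 to 5.44), but at 2.23 FPKM with ND75 RNAi (ratio 0.635, 0.245 to 1.47).

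The amidases went different ways. PGRP-SB1, an amidase made during bacterial challenge, was listed at 18.9 FPKM in the control, 131 FPKM with ΔOTC and 37.4 FPKM with ND75 RNAi. It was 6.91-fold (5.06 to 9.54) and 1.98-fold (1.31 to 2.98) the control. PGRP-LB, the amidase that limits Imd signalling, was at 8.47 FPKM in the control, 25.9 FPKM with ΔOTC (3.06-fold, 2.09 to 4.69) and 3.67 FPKM with ND75 RNAi (ratio 0.433, 0.167 to 0.913), so the 2 stresses lay on opposite sides of the control. PGRP-SC2 was at 101, 110.2 and 235 FPKM in control, ΔOTC and ND75 RNAi, 1.09-fold (0.931 to 1.27) and 2.32-fold (2.01 to 2.70). PGRP-SC1a was at 27.3 FPKM in the control, 2.73 FPKM with ΔOTC (ratio 0.100, 0.0364 to 0.236) and 0.419 FPKM with ND75 RNAi (0.0154, 0.000709 to 0.164). The last value rests on about 0.538 fragments, since reads of PGRP-SC1a and PGRP-SC1b may have been divided between the copies.

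**Figure D2:**
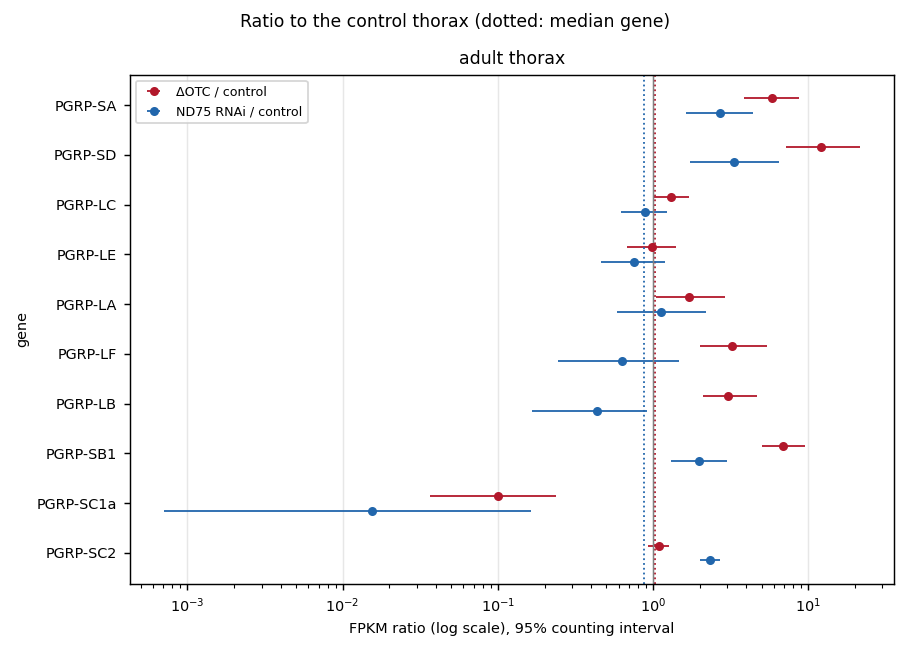
Ratio of FPKM to the control thorax on a log scale for the 10 PGRP genes (red ΔOTC, blue ND75 RNAi), with the 95% counting interval and the median ratio of all genes at 10 FPKM or more in the control as a dotted line of the same colour. PGRP-SD, PGRP-SB1 and PGRP-SA lie furthest to the right with ΔOTC (12.0, 6.91 and 5.80), and PGRP-SC1a furthest to the left under both stresses.

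By the thresholds of the study, which count a gene as higher at 3-fold or more and lower at 2-fold or more where the reference library has 10 FPKM or more, 4 of the 10 genes could be judged in the thorax. Of these, PGRP-SB1 was higher with ΔOTC, where 1.02% of 4308 genes were, and PGRP-SC1a was lower, where 6.66% were. With ND75 RNAi none of the 4 was higher (0.255% of all genes) and PGRP-SC1a was lower (8.64%). Most of the family lay under the level of 10 FPKM in the control. With a minimum of 1 FPKM all 10 could be judged, and 5 were higher with ΔOTC (PGRP-SD, PGRP-SB1, PGRP-SA, PGRP-LF and PGRP-LB), against 1.73% of 9018 genes, and 1 was lower (PGRP-SC1a, 8.58%). At this minimum 1 gene was higher with ND75 RNAi (PGRP-SD, 0.588%) and 2 were lower (PGRP-LB and PGRP-SC1a, 13.3%). The median log2 ratio of the 10 genes, on the log2(FPKM + 1) scale used for all lists below, was 1.07 with ΔOTC and -0.01 with ND75 RNAi, beside 0.06 and -0.17 over all genes.

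The other genes of the pathways were read in lists. Of all genes at 1 FPKM or more in either library, 576 of 9436 were at least 2-fold higher with ΔOTC on this scale and 260 of 9329 with ND75 RNAi. Differences of that size in the opposite direction were found for 559 and 853 genes. Of 13 Imd target peptide genes, 13 were at least 2-fold higher with ΔOTC (median log2 ratio 4.83) and all 12 that reached 1 FPKM were so with ND75 RNAi (median 2.70). Their summed level was 14.6 FPKM in the control, 1362 FPKM with ΔOTC and 203 FPKM with ND75 RNAi, the order seen for PGRP-SD, PGRP-SA and PGRP-SB1. The diptericin gene DptB stood at 1.26, 526 and 29.9 FPKM in control, ΔOTC and ND75 RNAi, and AttC, an attacin, at 10.4, 224 and 37.8 FPKM. The signalling genes between receptor and peptides moved less. Of 14 Imd signalling components 2 were at least 2-fold higher with ΔOTC, the factor Rel (28.0 FPKM in the control and 102 FPKM with ΔOTC) and the kinase regulator key (20.9 and 47.0 FPKM), both named after their values were seen, and 0 with ND75 RNAi. Of 8 Imd negative regulators pirk (4.08 and 12.0 FPKM) and CG5118 (7.23 and 17.3 FPKM) were so with ΔOTC, also named after their values were seen, and 0 with ND75 RNAi. In the Toll branch, 2 of 8 upstream genes, 1 of 8 receptor and signalling genes and 3 of 9 target peptide genes were at least 2-fold higher with ΔOTC. These were the protease spirit and the ligand gene spz, the factor dl (23.2 FPKM in the control and 61.3 FPKM with ΔOTC), and the peptide genes Drs, Mtk and IM14, named because they make up the counts. With ND75 RNAi the counts of higher genes were 0, 0 and 4, the last being Drs, Mtk, IM1 and IM14. The Toll lists also held drops of 2-fold or more. Upstream, spheroide was at 24.9 FPKM in the control, 0.732 FPKM with ΔOTC and 1.55 FPKM with ND75 RNAi. The peptide gene IM23 was at 35.2, 6.50 and 37.2 FPKM in the same order, so its drop was limited to ΔOTC. No receptor or signalling gene of the list dropped that far under either stress.

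Markers of other cell types were read beside these differences. The 8 hemocyte markers summed to 125 FPKM in the control thorax, 237 FPKM with ΔOTC and 139 FPKM with ND75 RNAi, with none at 0, and 3 and 1 of the 8 were at least 2-fold higher with ΔOTC and ND75 RNAi. The 6 adult fat body markers summed to 17786, 16530 and 14313 FPKM in the same libraries. These sums were made up largely of the yolk protein genes Yp1, Yp2 and Yp3, at 7534, 4106 and 5378 FPKM in the control. Of the single markers, 2 were higher (Yp2 and Rfabg) and 4 lower than the control with ΔOTC, and 0 higher and 6 lower with ND75 RNAi. The part of these cells in the results was not tested, and in whole tissue, more cells of a type and more RNA per cell cannot be told apart.

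In larval fat body PGRP-SB1 differed widely between genotypes. It was listed at 26.2 FPKM in WT without RU486 and 10.7 FPKM with RU486, and at 86.0 FPKM in PGAM5 null without RU486 and 197 FPKM with RU486. RU486 thus went with 0.407 times the level in WT (0.270 to 0.600) and 2.29 times in PGAM5 null (1.93 to 2.72), a ratio between genotypes of 5.62 (3.71 to 8.52, counting error only). Relative to the median gene, whose shift is given below, the ratios were 0.575 and 2.93, so the WT value then missed the 2-fold threshold. PGAM5 null larvae were above WT in both conditions, 3.28-fold without RU486 (2.51 to 4.35) and 18.4-fold with it (13.5 to 26.3). The 13 Imd target peptide genes summed to 311 and 277 FPKM in WT without and with RU486 and to 699 and 2981 FPKM in PGAM5 null, so the highest library was the same for both. Dpt, on average the most abundant of these 13 genes in larvae, stood at 123, 80.2, 343 and 1418 FPKM in that order. Rel was at 23.6, 18.3, 19.9 and 21.3 FPKM in the same order. In the PGAM5 null with RU486, 0 of 14 Imd components were at least 2-fold higher than in WT with RU486. The count was 10 of 12 for target peptide genes and 1839 of 10214 for all genes at 1 FPKM or more. At least 2-fold lower were 0 components, 1 peptide gene (Def, 10.8 FPKM in WT and 4.82 FPKM in PGAM5 null) and 682 of all genes.

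**Figure D3:**
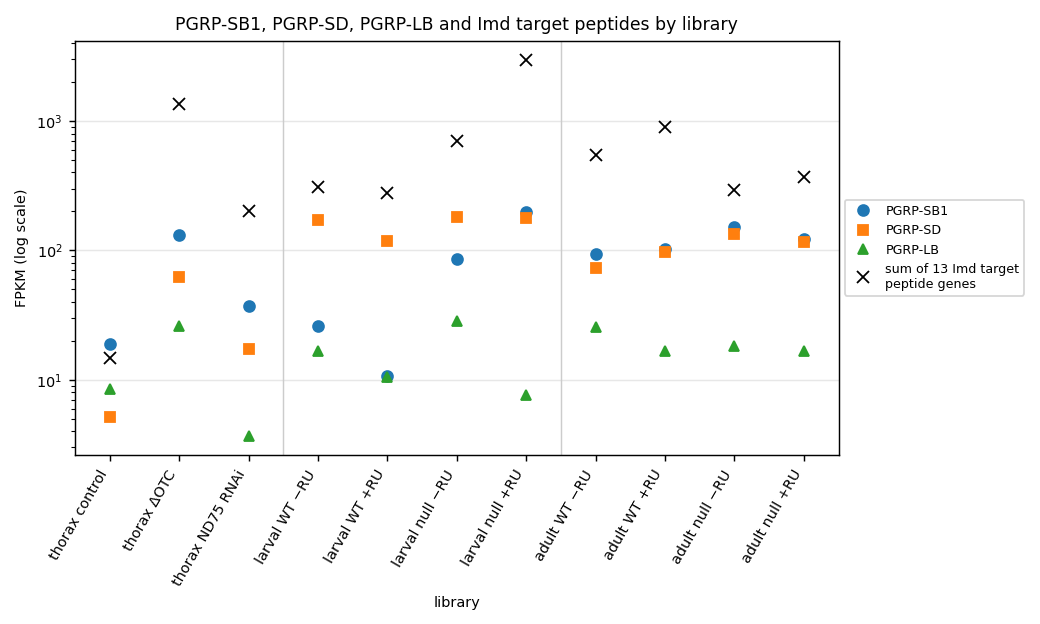
FPKM on a log scale in the 11 libraries of PGRP-SB1, PGRP-SD and PGRP-LB, and the summed FPKM of 13 Imd target peptide genes (crosses). The peptide sum is highest in larval PGAM5 null with RU486 (2981 FPKM), where PGRP-SB1 is also highest (197 FPKM) and PGRP-LB is at 7.66 FPKM.

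PGRP-LB, in contrast, was listed at 16.7 and 10.5 FPKM in WT larvae without and with RU486 and at 28.7 and 7.66 FPKM in PGAM5 null larvae. Its RU486 ratio was 0.629 (0.453 to 0.891) in WT and 0.267 (0.160 to 0.419) in PGAM5 null, lower in both. Relative to the median gene these ratios became 0.888 and 0.342, so in WT PGRP-LB lay close to the median gene. PGRP-SC2 had the lowest ratios of the family. It was at 105 and 17.1 FPKM in WT (0.163, 0.127 to 0.205) and at 273 and 8.33 FPKM in PGAM5 null (0.0306, 0.0179 to 0.0481). The ratio between genotypes was 0.188 (0.112 to 0.316) for PGRP-SC2 and 0.425 (0.2435 to 0.741) for PGRP-LB, with counting error only. PGRP-SC1a was low in WT, at 0.855 and 1.04 FPKM, which rest on about 2.17 and 3.82 fragments, and at 12.3 and 3.44 FPKM in PGAM5 null (0.281, 0.0778 to 0.668).

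The median gene at 10 FPKM or more was itself at 0.707 times its level in WT larvae with RU486 and at 0.782 times in PGAM5 null larvae, shifts of -0.50 and -0.36 on the log2 scale. Most of the other PGRP genes lay close to that shift in WT. PGRP-SD was at 170.4 and 118 FPKM in WT (0.693) and at 181 and 179 FPKM in PGAM5 null (0.989). PGRP-SA was at 73.2 and 58.7 FPKM in WT (0.802) and 97.9 and 67.7 FPKM in PGAM5 null (0.691). Relative to the median gene these ratios became 0.979 and 1.27 for PGRP-SD and 1.13 and 0.884 for PGRP-SA, so the direction for PGRP-SA in WT and for PGRP-SD in PGAM5 null depended on the scaling. PGRP-LC was at 11.6 and 7.94 FPKM in WT (0.686, 0.490 to 0.976) and 11.8 and 6.84 FPKM in PGAM5 null (0.580, 0.349 to 0.911). PGRP-LE went from 16.0 FPKM without to 12.1 FPKM with RU486 in WT (0.759, 0.585 to 0.976, or 1.07 relative to the median gene) and from 12.2 to 9.92 FPKM in PGAM5 null (0.816, 0.559 to 1.18). Relative to the median gene PGRP-LC was at 0.970 in WT and 0.742 in PGAM5 null. PGRP-LA was at 4.01, 2.70, 6.46 and 2.01 FPKM in the order WT without, WT with, PGAM5 null without and PGAM5 null with RU486, and PGRP-LF at 0.956, 0.862, 1.46 and 1.75 FPKM, the latter on fewer than 10 fragments in each library.

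Under the thresholds of the study 7 PGRP genes could be judged in WT larvae and 8 in PGAM5 null larvae. With RU486 none of the 7 was higher in WT (0.861% of all genes) and 2 were lower, PGRP-SC2 and PGRP-SB1, a share close to the 30.5% of all genes, and the call of PGRP-SB1 was lost when the libraries were scaled to the median gene. In PGAM5 null none of the 8 was higher (1.55%) and 3 were lower, PGRP-LB, PGRP-SC1a and PGRP-SC2, against 17.5%. Between genotypes without RU486, 1 of 7 was higher in PGAM5 null, PGRP-SB1 (0.536%), and none was lower (5.09%). With RU486, 1 of 6 was higher, again PGRP-SB1 (1.78%), and 1 was lower, PGRP-SC2 (9.63%), at 0.487 times WT (0.274 to 0.812). PGRP-SC1a and PGRP-SC2 were 14.4-fold (4.01 to 137) and 2.59-fold (2.29 to 2.93) WT without RU486, the former with a WT level under the minimum. In the same comparison 15 of 30 gut digestive enzyme genes were at least 2-fold higher in PGAM5 null and 0 lower, on the log2(FPKM + 1) scale. Over all 10854 genes 369 were higher and 525 lower on that scale. The comparisons of 1 stage share libraries, so their ratios are not independent.

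The median log2 ratio for RU486 was -0.49 over the 9 PGRP genes at 1 FPKM or more in WT larvae and -0.62 over all 10 in PGAM5 null larvae, beside -0.50 and -0.26 over all genes. In PGAM5 null larvae 12 of 12 Imd target peptide genes (median log2 ratio 2.21) and 7 of 9 Toll target peptide genes were at least 2-fold higher with RU486 and 0 and 1 (IM23) lower. Of 14 Imd components 0 were higher and 2 were lower, imd and BG4. Over all 10555 genes 474 were higher and 1484 lower, a share of lower genes like that of the components. In WT larvae 5 of 13 Imd target peptide genes were at least 2-fold higher, the 4 cecropin genes CecA1, CecA2, CecB and CecC and the defensin gene Def, and 1 was lower, edin. Of 6 Toll target peptide genes 1 was at least 2-fold higher, Mtk, and 4 were at least 2-fold lower, Drs (411 FPKM without and 31.0 FPKM with RU486), IM2, IM3 and IM10, with a median log2 ratio of -2.35. Over all 10753 genes 442 were higher and 3050 lower.

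**Figure D4:**
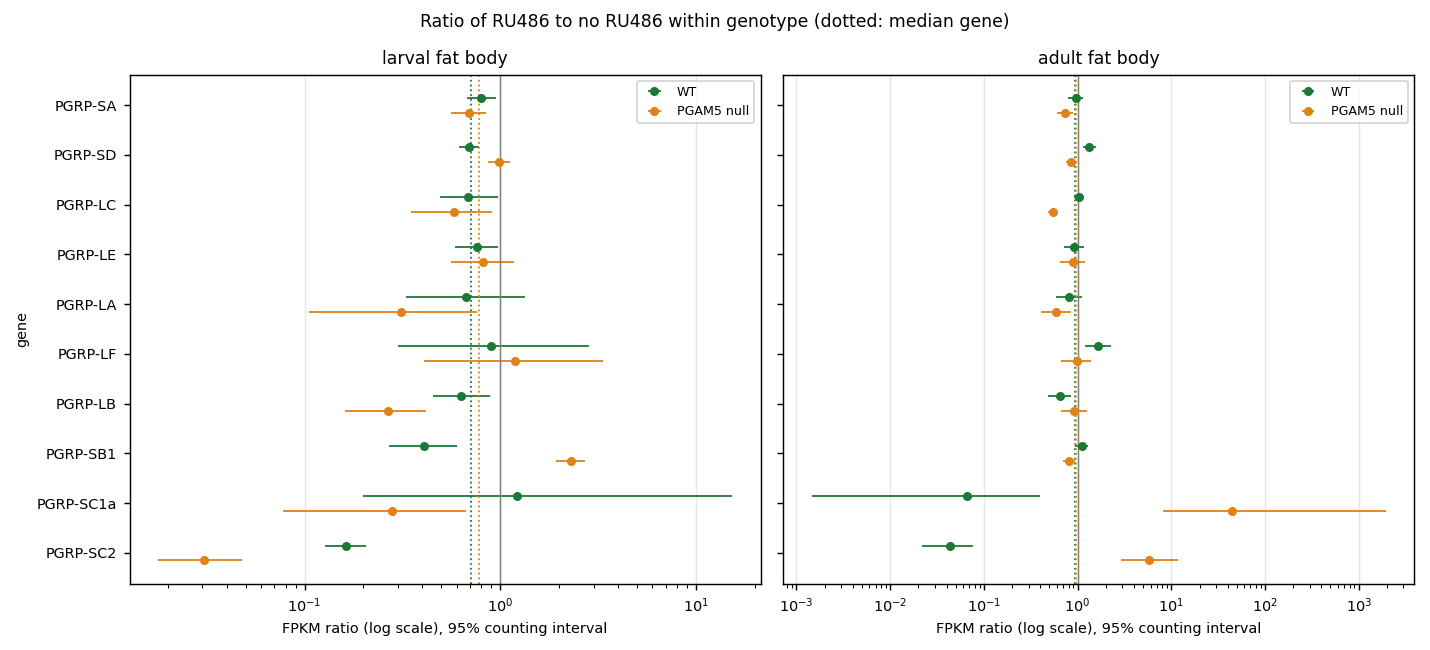
Ratio of FPKM with RU486 to without RU486 on a log scale for the 10 PGRP genes in larval (left) and adult (right) fat body, WT in green and PGAM5 null in orange, with 95% counting intervals and dotted lines at the median ratio of genes at 10 FPKM or more in the reference. PGRP-SB1 in larvae (0.407 and 2.29) and PGRP-SC1a and PGRP-SC2 in adults lie on opposite sides of 1 in the 2 genotypes.

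In the adult fat body, 7 days after eclosion, all members but the SC amidases differed less than 2-fold with larval RU486. PGRP-SB1 was listed at 93.3 and 103 FPKM in WT without and with RU486 and 151 and 123 FPKM in PGAM5 null, ratios of 1.10 (0.937 to 1.30) and 0.811 (0.703 to 0.938). The 18.4-fold range of this gene among larval libraries compares with 1.62-fold among adult ones. PGRP-SD was at 72.6 and 96.7 FPKM in WT (1.33, 1.13 to 1.57) and 135 and 115 FPKM in PGAM5 null (0.855, 0.746 to 0.979). PGRP-SA was at 62.0, 59.5, 70.7 and 51.8 FPKM in the order WT without, WT with, PGAM5 null without and PGAM5 null with RU486, a range of 1.37-fold.

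The receptor PGRP-LC was at 80.6 and 83.8 FPKM in WT (1.04, 0.922 to 1.17) and at 118 and 65.0 FPKM in PGAM5 null (0.551, 0.487 to 0.622), the highest and the lowest of the 4 adult libraries. The ratio between genotypes was 0.530 (0.448 to 0.628). Its inhibitor PGRP-LF was at 8.59 and 14.2 FPKM in WT (1.65, 1.21 to 2.27) and at 8.02 and 7.82 FPKM in PGAM5 null (0.975, 0.664 to 1.41), so the WT library with RU486 was the high one. PGRP-LA was at 17.0, 13.8, 17.7 and 10.5 FPKM, PGRP-LE at 18.1, 16.6, 11.9 and 10.6 FPKM, and PGRP-LB at 25.4, 16.6, 18.2 and 16.7 FPKM in the same order as PGRP-SA. The RU486 interval did not contain 1 for PGRP-LA in PGAM5 null (0.593, 0.412 to 0.849) and PGRP-LB in WT (0.653, 0.487 to 0.859). In the other genotype each contained 1. PGRP-LE was below WT in PGAM5 null in both conditions, at 0.659 (0.507 to 0.864) and 0.639 (0.479 to 0.844).

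The SC amidases differed most among adults. PGRP-SC2 was listed at 69.2 FPKM in WT without RU486, 2.99 FPKM in WT with RU486, 2.80 FPKM in PGAM5 null without RU486 and 16.4 FPKM in PGAM5 null with RU486. PGRP-SC1a was low in the same 2 libraries but highest in PGAM5 null with RU486, at 5.55, 0.371, 0.397 and 17.7 FPKM in that order, where the low values rest on about 1.07 and 1.08 fragments. With RU486 PGRP-SC2 was at 0.0432 times its level in WT (0.0221 to 0.0770) and at 5.84 times in PGAM5 null (2.93 to 11.9). For PGRP-SC1a the ratios were 0.0668 (0.00146 to 0.400) and 44.4 (8.21 to 1942).

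Under the thresholds 8 PGRP genes could be judged in WT adults and 7 in PGAM5 null adults for RU486. In WT none was higher (0.319% of all genes) and PGRP-SC2 was lower (9.01%), and in PGAM5 null none was higher (0.399%) or lower (4.77%), since both SC genes were under 10 FPKM in the reference. Between genotypes without RU486, of 8 genes none was higher in PGAM5 null (0.12%) and PGRP-SC2 was lower (14.9%). With RU486, of 8 genes none was higher (0.282%) and none lower (7.74%). The 13 Imd target peptide genes summed to 548, 891, 292 and 372 FPKM in the order WT without, WT with, PGAM5 null without and PGAM5 null with RU486. The defensin gene Def alone made up 251, 522, 22.7 and 23.6 FPKM of these sums. DptB, at 68.8, 89.9, 70.2 and 133 FPKM, did not share that order. With RU486, 4 of 12 Imd target peptide genes were at least 2-fold higher in WT adults (Dro, AttB, Def and edin) and 3 lower (AttD, CecA2 and CecC). In PGAM5 null adults 1 of 13 was higher (Dpt) and 2 were lower (CecA1 and CecC). Over all genes the counts were 168 higher and 683 lower of 8872 in WT and 507 higher and 426 lower of 8891 in PGAM5 null. The median log2 ratio of the 10 PGRP genes was -0.09 in WT and -0.19 in PGAM5 null, beside -0.07 and 0.01 over all genes.

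Digestive enzyme genes of the gut moved with the SC amidases in part of the libraries. Of 31 such genes, trypsins, Jonah proteases, amylases, a maltase and lysozymes, the summed level in adult fat body was 7865 FPKM in WT without RU486, 86.9 FPKM in WT with RU486, 96.5 FPKM in PGAM5 null without RU486 and 712 FPKM in PGAM5 null with RU486. As for PGRP-SC2, the highest library was WT without RU486 and the next PGAM5 null with RU486, and alphaTry, the most abundant of the list in adults, was at 1674, 11.8, 13.6 and 31.3 FPKM. In the thorax, from which the intestine had been removed, the sum was 2911 FPKM in the control, 753 FPKM with ΔOTC and 562 FPKM with ND75 RNAi, the order of PGRP-SC1a and the reverse of PGRP-SC2. In the larvae it was 15302 FPKM in WT without RU486, 13076 FPKM in WT with RU486, 16017.5 FPKM in PGAM5 null without RU486 and 1339 FPKM in PGAM5 null with RU486. The sums without RU486 were close, but the genes differed: the median of the 31 genes was 3.79 FPKM in WT and 243 FPKM in PGAM5 null, and 15 and 28 of them were at 10 FPKM or more. Between these 2 libraries PGRP-SC1a and PGRP-SC2 were also higher in PGAM5 null. With RU486 3 of 19 enzyme genes were at least 2-fold higher and 2 lower in WT, where PGRP-SC2 was at 0.163, and 29 of 30 were lower in PGAM5 null, where it was at 0.0306. No library lacked the list: between 0 and 10 of the 31 genes were at 0. The part of gut RNA in the levels of PGRP-SC1a and PGRP-SC2 was not tested.

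**Figure D5:**
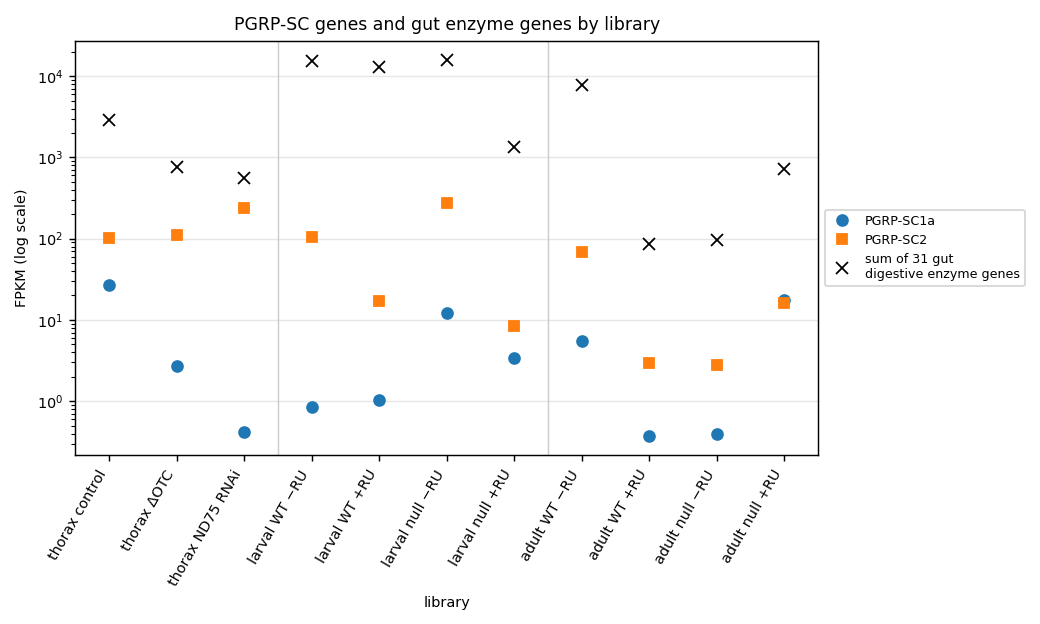
FPKM on a log scale in the 11 libraries of PGRP-SC1a and PGRP-SC2 and the summed FPKM of 31 gut digestive enzyme genes (crosses). In adult fat body all 3 are low in WT with RU486 and in PGAM5 null without RU486; in thorax PGRP-SC2 is highest with ND75 RNAi (235 FPKM), where the enzyme sum is lowest (562 FPKM).

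Likeness of pattern was described by Pearson's r of log2(FPKM + 1) over the 11 libraries, which share tissue and stage, among 7152 genes at 5 FPKM or more on average. The secreted sensors PGRP-SA and PGRP-SD were alike (r = 0.964). The neighbours PGRP-LA and PGRP-LC (r = 0.941) and PGRP-LC and PGRP-LF (r = 0.873) were alike as well. Rel was the gene most like PGRP-LF (r = 0.967). PGRP-LC was closest to SP2637 (r = 0.991), PGRP-LA to CG11210 (r = 0.979), PGRP-LE to CG3552 (r = 0.963), PGRP-LB to Ciao1 (r = 0.938) and PGRP-SC2 to Nhe2 (r = 0.890). Apart from its copy PGRP-SC1b, PGRP-SC1a was closest to the gut protease gene Jon99Fii (r = 0.905). PGRP-SB1 had looser partners: pncr016:2R (r = 0.867), CG31800 (r = 0.806) and the antifungal peptide gene Drs (r = 0.798). PGRP-SC1a and PGRP-SC2 were not alike over all libraries (r = 0.338).

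The other 3 PGRP genes of the tables bound the family. PGRP-LD was listed at 4.16 to 10.7 FPKM in all 11 libraries. PGRP-SB2, the neighbour of PGRP-SB1 on the opposite strand, was listed at 0 except for 6.69 FPKM in PGAM5 null larvae without RU486. PGRP-SC1b followed PGRP-SC1a (r = 0.991), for example at 24.9, 2.27 and 0.348 FPKM in control, ΔOTC and ND75 RNAi thorax, and the level of either copy is uncertain.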

How the data were processed

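RNA from 11 samples was sequenced by the authors from TruSeq libraries on a MiSeq and mapped to Drosophila genome release 5. The deposited values are FPKM, which the authors computed with TopHat, Bowtie and Cufflinks per the labels; versions and the handling of strand and shared reads are not given in the sources used here. They were used as deposited, each table on its own. Fragment numbers were estimated from the steps of low FPKM with transcript lengths of 14927 matched genes (Ensembl release 115, another build, so no coordinates are given), and the procedure was tested on simulated data. The share of values under 5.5 fragments that lay no more than 0.1 from a whole number was 80.7% to 84.8%. Ratios carry the exact conditional binomial interval at 95%, and differences of ratios between genotypes an approximate interval from the same fragment numbers, for the shortest transcript of a gene. With 1 library per group no test was possible, and it is not known how far groups would differ by chance. The 10 genes and the 17 gene lists (159 of 162 symbols matched) were chosen with earlier results of these data known. Genes beside the 10 were named as the 3 most abundant of a list in a table or the 3 most alike, unless stated; of these a selection is printed. Alternatives varied the minimum level, fold, pseudocount and scaling. Promoter motifs and protein comparisons were not run, and no sequences are printed. Computation used scipy 1.17.1, pandas 2.3.3 and numpy 2.4.6 under Python 3.11.15, with figures from matplotlib 3.10.9.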

Additional observations from a re-analysis of the deposited data

Results flagged for a closer look

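In 8 cases a PGRP gene differed by more than 2-fold in opposite directions under a like contrast. Each contrast compares 1 library with 1 library, so none of these differences was tested, and several share libraries. The size is the difference of the 2 log2 ratios, the second named minus the first. For RU486 in WT and then PGAM5 null larvae, PGRP-SB1 differed by 2.49. Relative to the median gene its WT ratio was 0.575, which is less than 2-fold lower, so this case rests on the scaling. For RU486 in WT and then PGAM5 null adults, PGRP-SC1a differed by 9.38 and PGRP-SC2 by 7.08. For RU486 in PGAM5 null larvae and then adults, PGRP-SC1a differed by 7.31 and PGRP-SC2 by 7.58. For PGAM5 null against WT without RU486 in larvae and then adults, PGRP-SC1a differed by -7.65 and PGRP-SC2 by -6.00. For ΔOTC and then ND75 RNAi in the thorax, PGRP-LB differed by -2.82. Of these 8 cases, 6 concern PGRP-SC1a or PGRP-SC2, whose levels in adult fat body were low in the same libraries as the gut enzyme genes. That likeness did not hold in all libraries, and the part of gut RNA in these cases was not tested.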

How the results depend on the processing

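The count of PGRP genes past the thresholds of the study depended on the minimum level and on the SC amidases. A count was taken as moved if it changed by more than a set tolerance, or to or from 0. So defined, dropping the minimum moved 7 of 10 counts, a minimum of 1 FPKM 6, and leaving out PGRP-SC1a and PGRP-SC2 7. Smaller changes are not in these numbers. With ΔOTC in thorax the count was 2, and 6 with no minimum or a minimum of 1 FPKM. With ND75 RNAi it was 1, and 3 under either of these and 2 with 2-fold in both directions. For PGAM5 null against WT larvae without RU486 it was 1, and 2 with no minimum or with 2-fold in both directions. For RU486 in WT adults, and for PGAM5 null against WT adults without RU486, it was 1, and 2 with no minimum or 1 FPKM. For RU486 in PGAM5 null adults, and for PGAM5 null against WT adults with RU486, it was 0, and 2 with no minimum and 1 at 1 FPKM. For RU486 in PGAM5 null larvae it was 3, and 4 with no minimum or 1 FPKM (PGRP-LA added). There 2-fold in both directions added PGRP-SB1. For PGAM5 null against WT larvae with RU486, no minimum or 1 FPKM added PGRP-SC1a. These larval changes were within the tolerance. Scaling to the median ratio lowered the count from 2 to 1 for RU486 in WT larvae (PGRP-SB1 lost) and for PGAM5 null against WT larvae with RU486 (PGRP-SC2 lost, at 0.503), and a pseudocount of 1 FPKM did so for the latter. Leaving out PGRP-SC1a and PGRP-SC2, chosen after seeing the data, gave 1 for ΔOTC, for RU486 in WT larvae, for RU486 in PGAM5 null larvae (from 3) and for PGAM5 null against WT larvae with RU486. It gave 0 for ND75 RNAi, for RU486 in WT adults and for PGAM5 null against WT adults without RU486. Of 100 single log2 ratios, 100 stayed within their counting interval with a pseudocount of 1 FPKM and 93 with median scaling. No paired analysis was possible because each group has 1 library, and for the same reason no library could be left out. Genes under about 1 FPKM rest on a few fragments.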
